A study of Mus musculus with 13 samples.

Results

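The thrombospondin genes are a family of 5 mouse genes, Thbs1, Thbs2, Thbs3, Thbs4 and Comp, and their variant and copy number calls were followed through 7 whole-genome DNA libraries. The members were all calls whose annotated gene name was 1 of these 5, out of 15365 gene names in the variant tables. Thbs1 was picked because earlier work on the same calls had shown a run of T-ALL calls in it, so its calls are given as a description and carry no test. The rule found 18 single nucleotide variant (SNV) calls, 39 insertion or deletion (INDEL) calls and no copy number call.

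The series concerns leukaemias of C57BL/6 mice that carried retroviral N-Myc (a Myc family transcription factor). Each group was 1 library of GFP+ bone marrow cells with a stage of 8 to 10 weeks in the labels. ALL, AML, AUL and MPAL stand for acute lymphoblastic, acute myeloid, acute undifferentiated and mixed phenotype acute leukaemia. T-ALL was sorted as CD3+, B-ALL as B220+, AML as Mac1+Gr1+ and AUL as negative for these 4 markers, from 2000000 cells each. M-MPAL was Mac1/Gr1+ and negative for B220 and CD3/4/8, T-MPAL was CD3/4/8+ and negative for Mac1/Gr1 and B220, and the empty control was GFP+ cells of empty control mice, from 1000000 cells each. How many mice or clones stand behind a library, and which promoter drove the construct, was not stated in the labels. Each group being 1 library, differences between groups could not be set against replicates, and DNA calls give no level of the lineage markers. AUL had the longest SNV table, with 47499 calls, and the empty control the shortest, with 36461. The T-ALL library was the one with many genes that held runs of SNVs in exons, called in no other library: 28 genes with 3 or more, against 0 to 2 in each of the other 6. Of the 18 SNVs of the family 17 rest on it.

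Thrombospondins are large secreted glycoproteins of the extracellular matrix that bind calcium, cell surface receptors and other matrix proteins. Thbs1 and Thbs2 encode the trimeric members, which carry the type 1 repeats known for binding the receptor CD36 and inhibiting blood vessel growth. Thbs3, Thbs4 and Comp encode the pentameric members, known from cartilage, tendon and muscle. Thbs1 protein is abundant in platelets and is made by fibroblasts and many other adherent cells.

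The INDEL calls of the family all lay in introns and in simple repeats, so the repeats are shown first, as the deposited tables give them on the forward strand of mm10. Capitals mark the bases that the caller placed as lost. The Thbs1 repeats span chr2:118112505-118112553 and chr2:118112746-118112795, and the Thbs4 repeat spans chr13:92778412-92778445.
Thbs1 AC repeat: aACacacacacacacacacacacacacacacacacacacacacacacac
Thbs1 CT repeat: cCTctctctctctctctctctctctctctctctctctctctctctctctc
Thbs4 AC repeat: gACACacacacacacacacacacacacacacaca
Sequence of the Thbs1 exons was not used here.

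T-ALL had 17 SNV calls in Thbs1, and the other 6 libraries, the empty control included, had 0 (a count of 0 has an exact 95% Poisson interval of 0 to 3.69). None of the other 4 genes had an SNV call in T-ALL. The 17 calls lay in exons: 10 in coding sequence and 7 in the 3' untranslated region (3' UTR), with 0 in introns, although Thbs1 spans 15258 bases (chromosome 2, 118111876 to 118127133). An exon share of 17 of 17 has an exact Clopper-Pearson interval of 80.5 to 100%. This interval, like those of other shares of SNVs below, treats calls as independent, which calls in a run are not. All 17 carried a heterozygous genotype. The only other SNV of the family was an intronic call in Thbs2 in the empty control, at chromosome 17, position 14693919, on 7 of 30 reads.

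**Figure D1:**
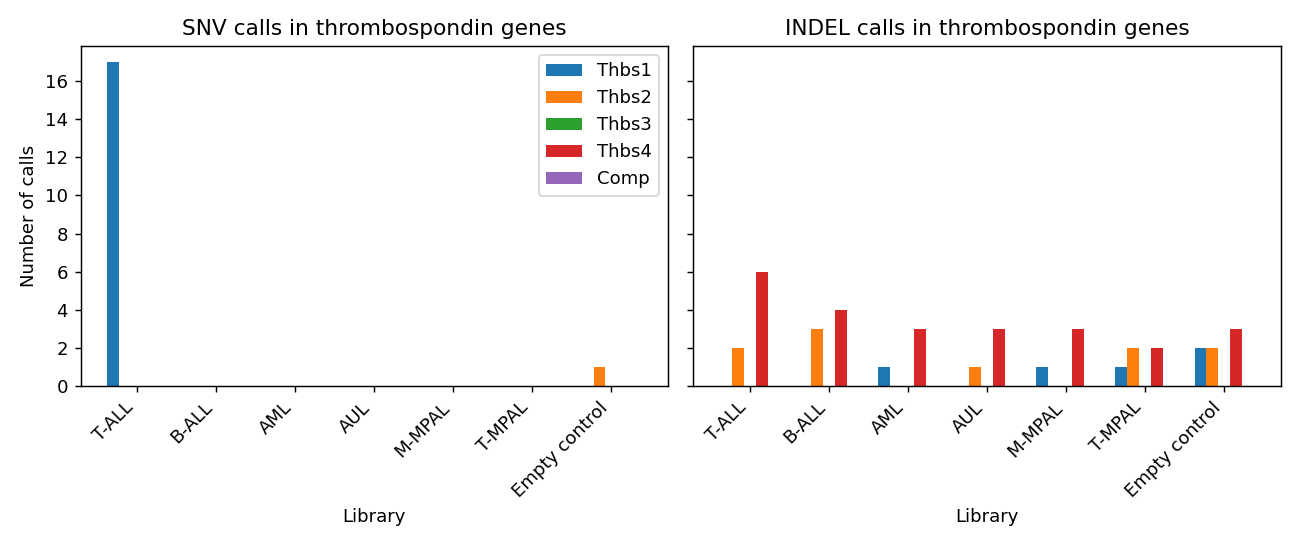
SNV calls (left) and INDEL calls (right) per library, with a bar for each thrombospondin gene and the number of calls on the vertical axis. The SNV calls stand in Thbs1 in T-ALL, with 17, apart from 1 Thbs2 call in the empty control, while INDEL calls occur in every library.

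The calls formed 4 groups along the gene, if a gap over the fragment length of 350 bases starts a new group. Group 1 had 4 calls over 114 bases of exon 3, early in the coding sequence. A69P at position 118113107 was on 14 of 39 reads and had a quality of 30.8. The synonymous P71P (position 118113115) was on 13 of 38 reads, T100T (118113202) on 11 of 31 and A106A (118113220) on 12 of 36. Quality was low throughout this group, from 28.7 to 42.1, although 11 to 14 reads carried each variant and their share ran only from 33.3 to 35.9%.

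Group 2 had 3 calls within 29 bases of exon 18. F951V (118122954) was on 25 of 62 reads, R959R (118122980) on 27 of 65 and Q960R (118122982) on 27 of 64. R959R and Q960R were 2 bases apart with the same number of alternative reads. Here depth was the highest of the coding groups, quality reached 140 to 165, and shares ran from 40.3 to 42.2%.

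Group 3 had 3 synonymous calls within 19 bases of exon 19. V1067V (118123470) was on 17 of 44 reads, T1071T (118123482) on 13 of 35 and P1073P (118123488) on 13 of 33. Shares ran from 37.1 to 39.4%, close to those of exon 18. The coding positions of the last call in exon 18 and the nearest in exon 19 were 322 bases apart, against 488 bases in the genome, so that 166 bases of intron lay between them without a call. In the same way 7201 bases of the 9734 between exon 3 and exon 18 were intron, as the numbering of the longer annotated transcript gives it. The other 2533 were coding sequence and held no call either, so the calls did not fill the exons of the gene.

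Group 4 had the 7 calls of the 3' UTR, over 427 bases. Those at 118126527 (18 of 46 reads) and 118126578 (17 of 49) led the group. Those at 118126752 (8 of 46) and 118126782 (13 of 47) had the lowest shares of the gene, 17.4 and 27.7%. At 118126871 (33 of 69) and 118126921 (26 of 57) the shares were the highest, 47.8 and 45.6%, and the last call, 118126953, was on 17 of 43 reads. Quality was 20.5 at 118126752, the lowest of the gene, and 222 at 118126871, the highest. Shares differed more inside the 3' UTR than between the coding groups: the interval of the lowest (7.82 to 31.4%) did not overlap that of the highest (35.6 to 60.2%).

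**Figure D2:**
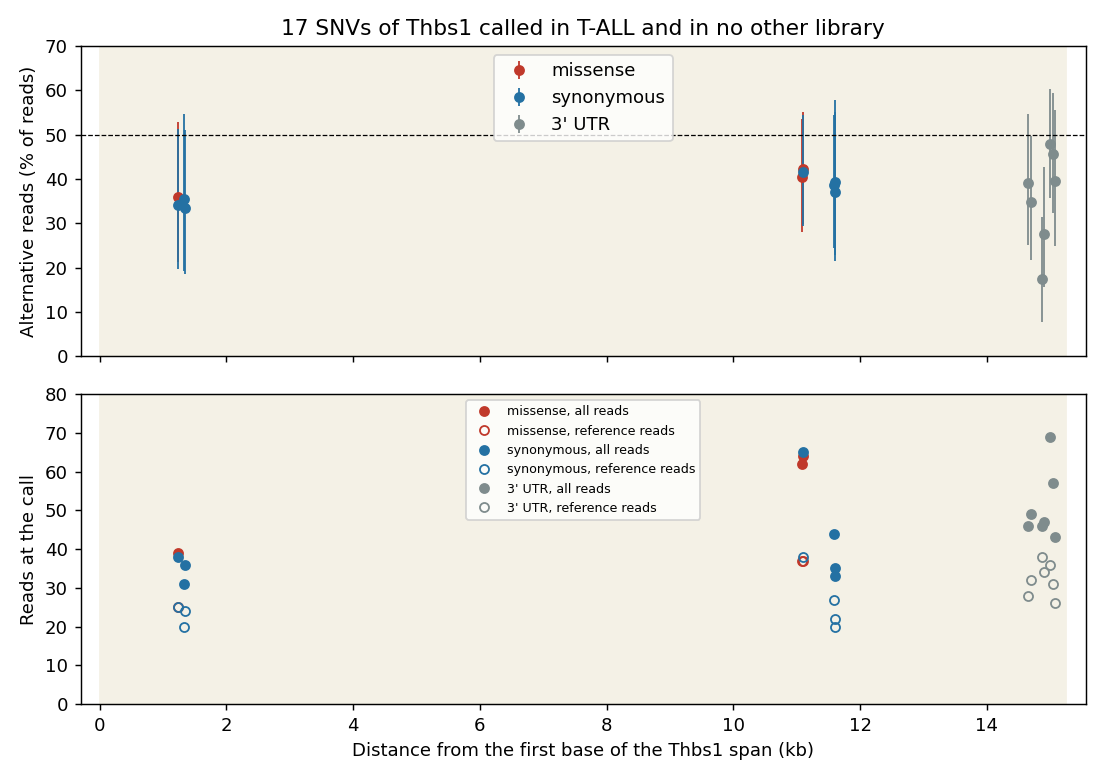
The 17 T-ALL calls of Thbs1 by distance from the first base of the gene span (kb, shaded). The upper panel shows the share of alternative reads in percent with exact 95% intervals and a dashed line at 50%, and the lower panel shows all reads (filled) and reference reads (open). The points stand in 4 groups with shares from 17.4 to 47.8%.

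The call just inside the deposited quality range was 118126752, with a quality of 20.5 where the lowest in the tables was 20. A quality of at least 100 left 12 of the 17 calls and removed all of exon 3.

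Over all 17 calls the share of alternative reads had a median of 38.6%, and 304 of 804 summed reads carried the variant (37.8%, 34.4 to 41.3%). Calls in the same read pair share reads, so this interval is too narrow. It covers counting error only, as do all intervals here, since these reads are not independent molecules. All 17 shares were below 50%, and the intervals of 3 calls, each in the 3' UTR, lay wholly below it.

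Spacing was short within the groups. Of the 16 neighbouring pairs, 12 were within the read length of 150 bases and 13 within the fragment length, and the median gap was 41 bases. The intervals of the alternative read share overlapped in all 16 pairs, the pair 9734 bases apart included, so they do not tell near pairs from distant ones. The deposited tables hold calls and not reads, and whether the variants sit on the same molecules was not tested. The strand of the alternative reads changed from group to group: 37 forward and 13 reverse in exon 3, 26 and 53 in exon 18, 10 and 33 in exon 19, and 84 and 48 in the 3' UTR. These are sums over calls, so a read that covers several calls is counted more than once. In the 3' UTR the strands were near even at 118126527 (9 and 9) and 118126578 (8 and 9), and the later calls had more forward reads. The strand of the reference reads was not counted.

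Of the 10 coding calls 7 were synonymous and 3 missense (A69P, F951V and Q960R), a synonymous share of 70% (34.8 to 93.3%). The same number, 7, fell at the third base of their codon, against 2 at the first and 1 at the second. There were 11 transitions and 6 transversions. The dbSNP column of the tables listed 4 of the 17 calls (23.5%, 6.81 to 49.9%): T100T, Q960R, T1071T and the 3' UTR call at 118126752. The listed calls thus lay in every group along the gene, each beside calls that were not listed.

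Depth at the 17 calls ran from 31 to 69 reads with a median of 46. That was 0.868 times the median of 53 reads at the 21876 SNVs called in all 7 libraries, many of which lie in repeats with extra reads. Set against T-ALL's 948 private intronic and intergenic SNVs outside repeats and segmental duplications, with at least 8 alternative reads (the lowest number in Thbs1), it was 1.24 times their median of 37. A private SNV is a call in 1 library with no call of the same change in the other 6. The median depth at Thbs1 was 1.12 times that of the SNVs called in all 7 libraries outside repeats and segmental duplications. It was 1.10 times that of all T-ALL SNVs and 1.15 times that of private SNVs in exons. Of these standards, only the SNVs called in all 7 libraries with repeats kept had a higher median than Thbs1. The planned depth of the library was 30x, and the cause of the depth at Thbs1 was not tested. Without the alternative reads, 20 to 38 reads remained at each call, with a median of 28. The 15 other T-ALL calls within 1 Mb of the gene had 5 to 35 reads, with a median of 18. They were taken without the limits on repeats, alternative reads and private calls, so they are not a like standard for Thbs1.

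**Figure D3:**
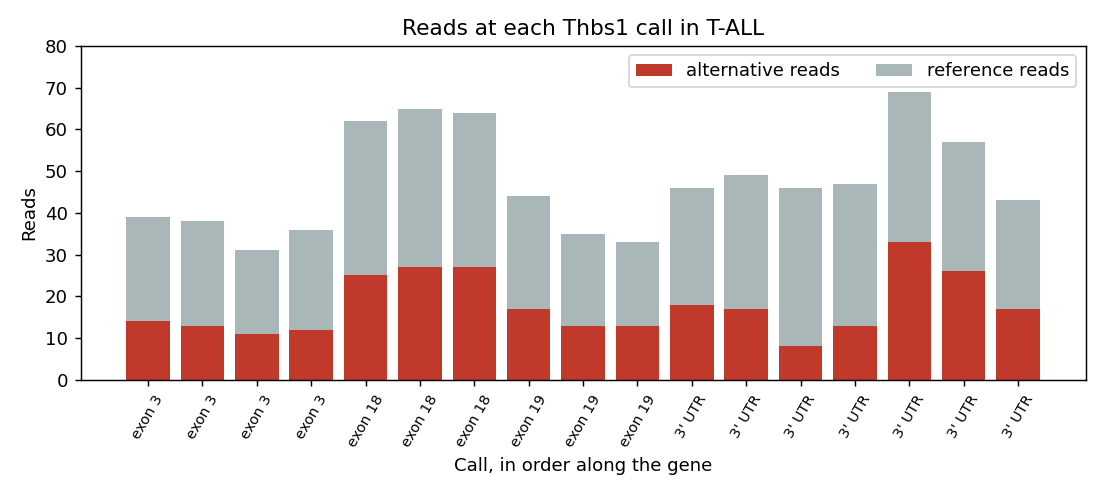
Alternative reads (bottom part) and reference reads (top part) at each of the 17 T-ALL calls in order along Thbs1, labelled by exon or 3' UTR, with reads on the vertical axis. Total height is largest in exon 18 and at 1 call of the 3' UTR, and reference reads stay between 20 and 38.

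The copy number tables had no call that overlapped or named any of the 5 genes. In T-ALL the call nearest to Thbs1 was 4550.9 kb away. The smallest call in the table of each library was 1 kb long, so the tables say nothing about shorter stretches. The AUL table ends early on chromosome 2, before Thbs1, and reaches none of the 5 genes. The AML table ends on chromosome 17 at 39849000, beyond all 5.

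The calls stopped at the gene. Within 100 kb on either side of Thbs1, T-ALL had no SNV call at all, and AUL was the only other library with 1. The nearest private SNV of T-ALL was 693 kb before the gene and 324 kb after it. Within 1 Mb on both sides together T-ALL had 3 private SNVs, 1 to 9 in the other leukaemias, and 3 in the empty control. A run of T-ALL variants over a wider stretch of chromosome 2 was thus not seen.

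How the caller's mapping values at these calls compared with other sites depended on the sites. Mapping quality was 38 to 47 with a median of 40, against a median of 45 at the 948 comparison SNVs of T-ALL, but 41 at the SNVs called in all 7 libraries and 41 over all T-ALL SNVs. The caller's measure of unequal mapping quality between reference and alternative reads, which is near 0 where they differ, was at most 6.12e-05 at all 17, with a median of 2.86e-07, against a median of 3.28e-05 in the comparison set. At the SNVs called in all 7 libraries its median was 8.85e-08, lower than in Thbs1. Its measure of how evenly the variant is placed within its reads, low where it falls at like positions, had a median of 0.000979 in Thbs1, against 0.247 in the comparison set, 0.317 at the SNVs called in all 7 libraries and 0.236 over all T-ALL SNVs. It was below 0.05 at 15 of the 17 Thbs1 calls. These are the caller's own values and are given as a description, and their part in the Thbs1 calls was not tested.

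Thbs1 was not the only gene of T-ALL with such a run. Of 6299 genes named in the SNV tables, 0.445% (28 genes) had 3 or more private SNVs in exons in T-ALL, and 0.0318% in B-ALL, in AML and in M-MPAL. The share was 0.0159% in AUL and in T-MPAL, and 0 of 6299 genes in the empty control. At 1 or more such SNVs it was 1.76% in T-ALL, 0.73% in B-ALL, 0.841% in AML, 1.86% in AUL, 0.699% in M-MPAL and 0.619% in T-MPAL, against 0.587% for the empty control. Thbs1 is among these genes because of its calls, so nothing about Thbs1 is read from that rank. It held 17 such SNVs, after 19 in Flna, which encodes the actin crosslinker filamin A, and before 9 in Actb, which encodes cytoplasmic beta-actin. Next came 5 genes with 6 each: Itgb1 (integrin beta 1), Lpl (lipoprotein lipase), Lrrc58, Pfn1 (profilin 1) and Serpinh1 (the collagen chaperone Hsp47).

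Outside segmental duplications, 26 of these T-ALL genes remained, and 0 of the 26 had a private intronic SNV in T-ALL. How many of all genes lacked one was not counted, so this 0 is not read as a trait of the genes with runs. The 25 genes other than Thbs1 had 120 private exon SNVs, 20% of them listed in dbSNP. Of their 61 coding SNVs 57 were synonymous (93.4%, 84.1 to 98.2%), against 70% (34.8 to 93.3%) in Thbs1. Thbs1 held 3 missense calls, against 4 in the 25 other genes together. Median depth per gene ran from 20.5 reads to 78 with a middle value of 42, and the median share of alternative reads from 13.8 to 40%, with a middle value of 28.5%. The 38.6% of Thbs1 was near the upper end of that range, as were 38.8% in Actb, 38.5% in Tmsb10 and 40% in P4hb.

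**Figure D4:**
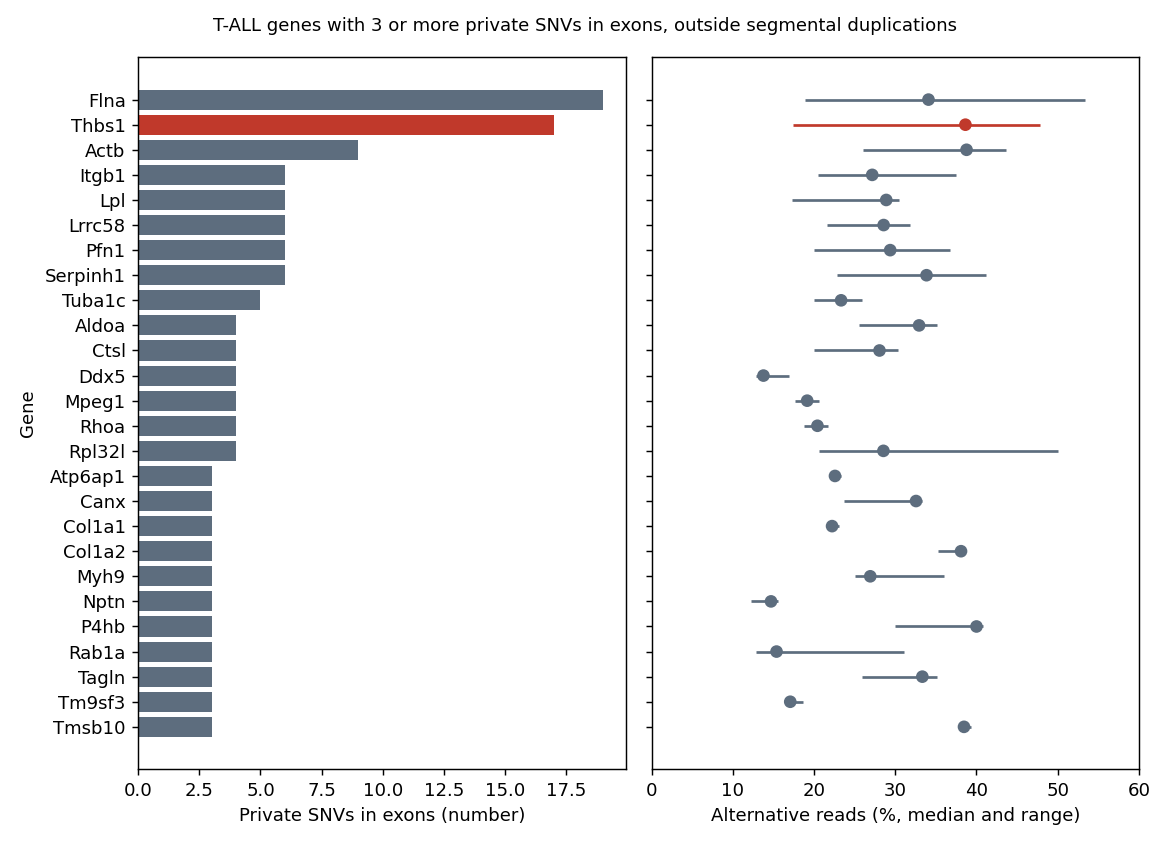
Genes with 3 or more private exon SNVs in T-ALL outside segmental duplications, with the number of such SNVs on the left and the share of alternative reads (percent, median as a point, range as a line) on the right. Thbs1, in red, has 17 calls and a median of 38.6%, second in number to Flna.

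Private SNVs were also counted over all genes with Thbs1 left out. Of the private SNVs of T-ALL in exons or introns, 10.9% (9.52 to 12.3%) lay in exons, and in the other 5 leukaemias from 3.30% (AML) to 6.10% (T-MPAL), against 5.07% (3.61 to 6.90%) in the empty control. Synonymous changes made up 83% (74.2 to 89.8%) of the private coding SNVs of T-ALL, from 22.2% (AUL) to 36.8% (M-MPAL) in the other leukaemias, and 18.8% (4.05 to 45.6%) in the empty control. These intervals treat SNVs as independent, which calls in runs are not, and no difference between the libraries was tested. The exon share of T-ALL must fall when the genes with runs are left out, since these were picked for their private exon SNVs. When every gene with 3 or more private exon SNVs in a library was left out of that library, an alternative chosen after seeing the data, it was 4.89% (3.96 to 5.96%), from 2.92% (AML) to 5.49% (T-MPAL) in the other leukaemias, and 5.07% in the empty control. The synonymous share was then 69.7% (51.3 to 84.4%) of the 33 coding SNVs left in T-ALL, from 21.3% (AUL) to 40% (B-ALL) in the other leukaemias, and 18.8% in the empty control. T-ALL was collected as 2000000 cells and the empty control as 1000000, and the cell number cannot be told apart from the difference between these libraries. B-ALL, AML and AUL were collected as 2000000 cells too, with exon shares of 3.30 to 4.48% and synonymous shares of 22.2 to 34.8%. Every Thbs1 SNV rests on the T-ALL library, and without it the family had 1 SNV in all. Whether the alternative reads in Thbs1 come from the genome of the T-ALL cells or from other DNA in the library, such as cDNA or DNA of another source, was not tested. The genotypes, protein changes and read shares given here therefore describe the calls and are not established as mutations of the leukaemia.

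**Figure D5:**
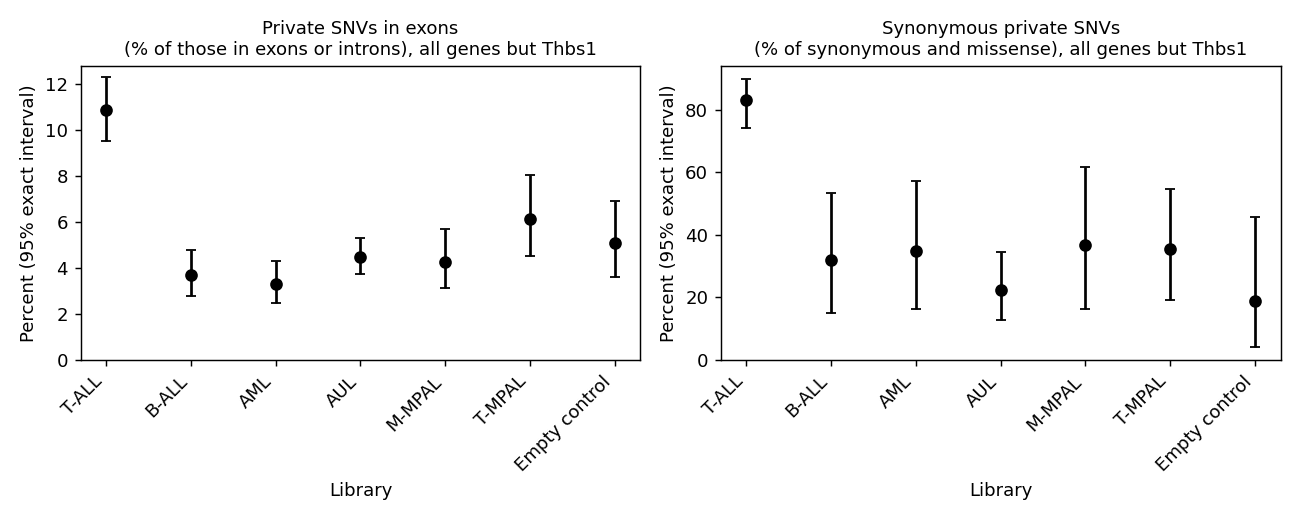
Share of private SNVs in exons among those in exons or introns (left) and share of synonymous among synonymous and missense private SNVs (right), in percent with exact 95% intervals, for each library with Thbs1 left out. T-ALL lies at 10.9% and 83%, above the other 6 libraries. Without every gene that held 3 or more private exon SNVs in a library the T-ALL values were 4.89% and 69.7%.

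Thbs1 had no INDEL call in T-ALL. Its AC repeat, shown above, had lost 2 bases in T-MPAL (6 of 18 reads), in AML (5 of 16) and in the empty control (8 of 19). Its CT repeat had lost 2 bases in M-MPAL (5 of 14 reads) and in the empty control (5 of 12). The empty control thus had both repeat calls of Thbs1, and depth there was 12 to 19 reads.

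Thbs2 (chromosome 17, 14665500 to 14694262) had INDELs at 5 intronic repeats. T-ALL lost 3 bases at 14674639 on 2 of 12 reads and 2 bases at 14677829 on 5 of 16. B-ALL lost 4 bases at that second repeat on 3 of 14 reads, 2 bases at 14689409 on 9 of 27 and 2 bases at 14693136 on 5 of 22. The last of these lost 2 bases in the empty control too, on 11 of 30 reads, and 4 bases in T-MPAL on 6 of 21. The control shared the call at 14689409 on 4 of 20 reads. At 14680239 AUL (5 of 10 reads) and T-MPAL (3 of 8) lost 2 bases. AML and M-MPAL had no call in Thbs2.

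Thbs4 (chromosome 13, 92751586 to 92794818), at 43233 bases the longest of the family, had INDELs at 6 intronic repeats. The loss of 4 bases in the repeat shown above was called in all 7 libraries, on every read. These were 17 reads in T-ALL, 13 in B-ALL and 26 in AML, then 23 in T-MPAL, 20 in AUL and 25 in M-MPAL, against 15 for the empty control. In T-ALL, B-ALL, AUL and T-MPAL a further loss of 6 bases was called beside it, and the read number given there counts both alleles together. So no library matched the reference length at this repeat. At 92757358 T-ALL lost 2 bases on 9 of 25 reads, while AUL (3 of 14) and the empty control (6 of 28) gained 2. At 92783631 a loss of 2 bases was on 3 of 20 reads in T-ALL, 5 of 25 in B-ALL and 3 of 20 in AML. At 92787852 T-ALL (8 of 17 reads) and AML (2 of 2) lost 2 bases and the empty control lost 6 (8 of 14). At 92777954 T-ALL (6 of 22) and M-MPAL (4 of 9) lost 2 bases, and at 92764958 B-ALL (7 of 28) and M-MPAL (8 of 24) did.

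The INDEL calls of the whole family numbered 8 in T-ALL (exact 95% Poisson interval 3.45 to 15.8), 7 in B-ALL, 5 in T-MPAL and 4 each in AML, AUL and M-MPAL, against 7 in the empty control (2.81 to 14.4). Alleles at the same site count as separate calls here and in the intervals and rates. By position the numbers were 7 in T-ALL, 6 in B-ALL, 4 each in AML, M-MPAL and T-MPAL, and 3 in AUL, against 7 in the empty control. Over all genes the INDEL tables held 92317 (T-MPAL) to 132423 (T-ALL) calls, so that the family had 6.04 per 100000 INDEL calls in T-ALL (exact interval 2.61 to 11.9), 3.10 (AML) to 5.91 (B-ALL) in the other leukaemias, and 6.98 (2.81 to 14.4) in the empty control. All leukaemia rates lay inside the interval of the empty control. The 39 calls stood at 13 positions, of which 12 were called in 2 or more libraries, and repeats held all 39. Depth was 2 to 30 reads with a median of 19, lower than at the Thbs1 SNVs.

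Thbs3 (chromosome 3, 89215180 to 89226841) and Comp (chromosome 8, 70373548 to 70382066) had no SNV, INDEL or copy number call in any library. They are the shortest of the 5 genes, at 11662 and 8519 bases. No call means only that no change passed the authors' filters there. For copy number in AUL it does not mean even that, since the AUL copy number calls end before both genes.

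Receptors and partners of the thrombospondins and other matricellular genes were looked at as a list of 24 genes, chosen with earlier results of these data known. In exons, T-ALL had 8 private SNVs in the list, and each of the other 6 libraries had 0. Of the 24 genes 2 held them, and 1.76% of the 6299 genes named in the SNV tables had such an SNV in T-ALL. These shares do not have the same base. List genes without any SNV call, such as Cd47 and Tnc, are not among the 6299. Itgb1, a subunit of integrin receptors for thrombospondin 1, had 6 in its 3' UTR on 8 to 18 alternative reads each. Calr, whose calreticulin protein binds thrombospondin 1 at the cell surface, had 2 in its 3' UTR, on 14 of 46 and 16 of 48 reads, and an insertion near them on 18 of 56. Itgb3, which encodes the other beta subunit in the list, had a private loss in its 3' UTR in T-ALL on 7 of 24 reads. An exon INDEL in Itgb3 was not particular to T-ALL. B-ALL, AML, AUL and the empty control each had 1 too, of a change that was not private. Cd47, a receptor for the carboxy-terminal part of thrombospondin 1, had a loss in its 3' UTR in M-MPAL on 3 of 15 reads. Cd36 had no private exon call. Like Thbs1, Itgb1 had no private intronic SNV in T-ALL, but the share of all genes without one was not counted.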

How the data were processed

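The submitters' processing notes name BWA, without a version, and mm10. SNVs and INDELs were called by the authors with samtools, copy number with FREEC, and genes, repeats and dbSNP entries were added with ANNOVAR, per the file headers and names. A call as deposited carries a Phred quality score, its reads and its alternative reads. The deposited copy number signal is in whole copies, with 2 as normal. Caller versions and filters were not stated in the labels.

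Members were found by gene name. Exons meant coding exons and UTRs. Protein changes follow the transcript with the farthest position. Private meant called in 1 library and in none of the other 6. Intervals are exact, at the 95% level. No test was run, since each group had 1 library. Of 727 exonic SNVs with a gene in a RefSeq table of GRCm38.p6, 725 lay inside the span of the gene (99.7%), and spans were taken from that table. Of the 13 samples, 6 on integration sites were not analysed here. The members and lists were chosen with earlier results of these data known. Named were all members, list genes with a private exon call, and the T-ALL genes outside segmental duplications with the most private exon SNVs (ties kept, and Olfr, Vmn, Zfp, Gm and Rik genes left out); Tmsb10 and P4hb were named after their values were seen. Alternatives changed quality, depth, repeats, dbSNP, gene assignment, the depth standard and the number of SNVs per gene. Counting of private SNVs per gene was tested on simulated data. Tables were read with pandas 2.3.3 and numpy 2.4.6 in Python 3.11.15, intervals came from scipy 1.17.1 and figures from matplotlib 3.10.9.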

Additional observations from a re-analysis of the deposited data

How the results depend on the processing

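Of 119 values under alternatives, 72 stayed within 1.5 times the reported count or within the interval of the reported value. Part of the 72 could not have moved, so the tally does not measure how firm the results are. A filter by quality or depth leaves a count of 0 at 0, as for family SNVs in B-ALL, AML, AUL, M-MPAL and T-MPAL. The same holds for the exon share of 100% in Thbs1. The 17 private Thbs1 SNVs of T-ALL became 12 with a quality of at least 100, 13 outside dbSNP, 15 outside repeats and 16 with an alternative read share of at least 0.2. Coding exons alone, an alternative chosen after seeing the data, held 58.8% of them. Their depth was 1.10 times the median of all T-ALL SNVs, 1.15 times that of private exonic SNVs, and, by standards added after seeing the data, 1.12 times that of SNVs in all 7 libraries outside repeats and segmental duplications and 1.24 times that of the private intronic and intergenic SNVs, against 0.868 times in the report. With every gene that held 3 or more private exon SNVs left out, added after seeing the data, the exon share of private T-ALL SNVs was 4.89% and the synonymous share 69.7%, against 10.9 and 83% with Thbs1 alone left out. The single control SNV of the family (Thbs2) became 0 with a quality of at least 100. That quality left 3 family INDEL calls in B-ALL, 2 each in T-ALL, AUL and T-MPAL, 1 each in AML and M-MPAL, and 2 in the empty control. Alleles at the same site count separately there. Outside repeats each library had 0.

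The number of genes with runs of private exon SNVs depended on the threshold. With at least 2 SNVs it was 44 in T-ALL, 11 each in AML and M-MPAL, 7 each in B-ALL and AUL, and 5 in T-MPAL, against 2 for the empty control. With at least 5 it was 9 in T-ALL, 0 in B-ALL, AML and M-MPAL, and 1 in AUL and T-MPAL. A quality of at least 100 left 7 in T-ALL and 0 in B-ALL, AML, AUL, M-MPAL and T-MPAL. Outside segmental duplications it was 1 in B-ALL and 0 in AUL and T-MPAL. In coding exons alone, added after seeing the data, it was 11 in T-ALL, 1 in B-ALL and AML, and 0 in AUL and M-MPAL. T-ALL had the highest number under each of these alternatives; the cause of the changes was not tested beyond the fewer calls each setting leaves. No paired analysis was possible because each group has 1 library.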

Other observations

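Among the other T-ALL genes with 3 or more private exon SNVs were Col1a1 (3 calls, median share 22.2%) and Col1a2 (3 calls, 38.1%), which encode the chains of type I collagen, and P4hb (3 calls, 40%), a subunit of the enzyme that hydroxylates collagen. Tagln, a smooth muscle and fibroblast actin-binding gene, had 3 calls (33.3%), Myh9, the nonmuscle myosin heavy chain, had 3 (26.9%), and the thymosin gene Tmsb10 had 3 (38.5%). Tuba1c, an alpha-tubulin gene, had 5 calls (23.3%), Aldoa, of glycolysis, had 4 (32.9%) and Mpeg1, known from macrophages, had 4 (19.2%). None of these genes had a private intronic SNV in T-ALL, but the share of all genes without one was not counted. Outside segmental duplications, Ctsl, Ddx5, Rhoa and Rpl32l had runs of 4 calls each, and Atp6ap1, Canx, Nptn, Rab1a and Tm9sf3 of 3 each. The genes described here were chosen after their values were seen, so no cell type is read from them, and no enrichment was tested.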
